A study of Mus musculus with 24 samples.

Results

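The genotype effect on liver transcripts at 20:30 (early dark phase) was compared with the genotype effect at 13:30 (mid light phase) in mice that express only the P2 isoforms of HNF4α. For each gene the quantity was the interaction, (α7HMZ at 20:30 minus WT at 20:30) minus (α7HMZ at 13:30 minus WT at 13:30), on the log2 scale. It equals the change between the 2 times in α7HMZ livers minus the same change in WT livers. A positive value means that α7HMZ livers gained more, or lost less, transcript by 20:30 than WT livers did. The comparison used 12 of the 24 livers of the series, 3 mice in each of 4 groups: α7HMZ at 13:30, WT at 13:30, α7HMZ at 20:30 and WT at 20:30. α7HMZ mice carry an exon swap in Hnf4a in all of their cells, not in the liver alone, and make only the P2 isoforms. All mice were males of 16 to 20 weeks on a mixed background, fed chow ad libitum, and the 3 mice of a group were taken in succession. Polyadenylated RNA of whole liver was sequenced without strand information, and the 12 libraries shared 1 flow cell. With a pair of times, a transcript that differs between them is described as time-dependent, and its phase cannot be read.

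HNF4α is a nuclear receptor that maintains hepatocyte gene expression. The P1 promoter is the main one in adult hepatocytes, and the P2 promoter is known from fetal liver, gut and liver tumours. In the liver clock, CLOCK and BMAL1 (encoded by Arntl) switch on their own repressors, the Per, Cry and Nr1d1/Nr1d2 genes, together with output factors such as DBP, and transcripts of these loops rise and fall each day. Feeding in the dark phase sets a second layer of daily change, in lipid, amino acid and stress genes.

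The libraries held 8545959 to 28445590 counts. CPM here are counts scaled to the size of each library. Hnf4a, counted over the whole gene and so no check of which isoform was made, had 956, 842 and 1082 CPM at 13:30 and 1064, 1171 and 1361 CPM at 20:30 in α7HMZ livers, against 1148, 1100 and 1026 CPM at 13:30 and 937, 606 and 960.3 CPM at 20:30 in WT livers. Its interaction was 0.71 ± 0.23 (SE, edgeR adjusted p = 0.153). The 9 hepatocyte marker genes in the table summed to 89570 to 166200 CPM over the 12 libraries. The 14 macrophage markers summed to 466.7 to 576.8 CPM at 13:30 and 185.3 to 691.7 CPM at 20:30 in α7HMZ livers. In WT livers they summed to 478 to 536 CPM at 13:30 and 338.8 to 468.9 CPM at 20:30. Among the 20:30 livers, 3 stood apart in Krt19, a bile duct keratin, at 15.4 CPM (α7HMZ replicate 1), 13.3 CPM (α7HMZ replicate 3) and 19.3 CPM (WT replicate 2), against at most 4.45 CPM in the other 9 libraries. The same 3 livers had 2.01, 3.52 and 5.27 CPM of the pancreatic enzyme transcript Ctrb1, which was at 0.332 CPM in WT replicate 3 at 20:30 and at 0 in the other 8 libraries. α7HMZ replicate 3 at 20:30 also held 3.76% Rn45s, a ribosomal RNA precursor, against at most 0.215% elsewhere. Of the marker genes tested for the interaction, none of 11 bile duct genes, 4 pancreatic acinar genes, 14 macrophage genes, 14 sinusoidal endothelial genes or 15 stellate and fibroblast genes passed the edgeR test described next. At an unadjusted p under 0.05 these lists held 0, 1 negative, 0, 2 negative and 2 positive members. Of all genes, 9.21% were positive and 7.35% negative at that level. The median interactions of these lists were 0.36, -0.05, -0.06, -0.28 and 0.33. Values were above 0 for 9 of 11, 2 of 4, 5 of 14, 2 of 14 and 11 of 15 members. DESeq2 called 1 gene of these lists, the endothelial gene Clec4g at -0.75. The hepatocyte list held 3 positive and 1 negative of 8 tested at that level, the neutrophil list 1 of 2, the erythroid list 1 of 1, the adipocyte list 1 of 3 and the lymphocyte list 0 of 10, and none of these passed with edgeR. Of these lists, DESeq2 called the hepatocyte gene Cps1 alone.

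Of 13290 genes tested with edgeR's quasi-likelihood test, 38 had a positive interaction and 14 a negative one at a Benjamini-Hochberg adjusted p under 0.05. These were 0.286% and 0.105% of the genes tested. At an unadjusted p under 0.05 there were 1224 positive (9.21%) and 977 negative genes (7.35%). DESeq2, which uses another estimate of the spread, called 267 positive (2.76%) and 147 negative genes (1.52%) of the 9675 genes to which it gave an adjusted p, and 49 of the 52 edgeR calls were among them. It gave no adjusted p for Sorl1, Pde6h and Erp27. The median interaction of all genes was 0.02. Every one of the 52 kept its sign in each of the 12 fits that left out 1 library. The genes called in all 12 of those fits were 7: Got1, Rapgef2, Mtmr4, Neb, 8430419L09Rik, Cd207 and Slc10a2.

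The count of calls depended on single libraries. It was 7, 8 and 7 positive and 6, 7 and 7 negative without α7HMZ replicates 1, 2 and 3 at 13:30. At 20:30 it was 99 and 36 without α7HMZ replicate 1, 26 and 16 without replicate 2, and 10 and 7 without replicate 3. It was 29 and 12, 68 and 25, and 8 and 4 without WT replicates 1, 2 and 3 at 13:30. Without WT replicates 1, 2 and 3 at 20:30 it was 35 and 22, 24 and 13, and 7 and 3. With the 3 libraries richest in Krt19 left out together, 29 genes were positive and 37 negative, and 20 of the 52 were called again.

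The 52 genes were sorted by the fitted change between the times in each genotype, with 1.5-fold as the limit and no test of the class itself. The largest class held 30 genes past the limit in WT livers only, called lost here, although a change below the limit in α7HMZ livers need not be 0 (-0.58 to 0.54 on the log2 scale over the 30). In 21 of them WT livers were lower at 20:30, and in 9 they were higher. A further 7 genes passed the limit in α7HMZ livers only (gained), and 8 did so in opposite directions in the 2 genotypes (reversed). Another 3 passed it in the same direction in both by different amounts, and 4 passed it in neither. With a 2-fold limit the same classes held 17, 5, 4, 2 and 24 genes. Pde6h, which was called, lies beyond the axes of the plot of the 2 changes.

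**Figure D1:**
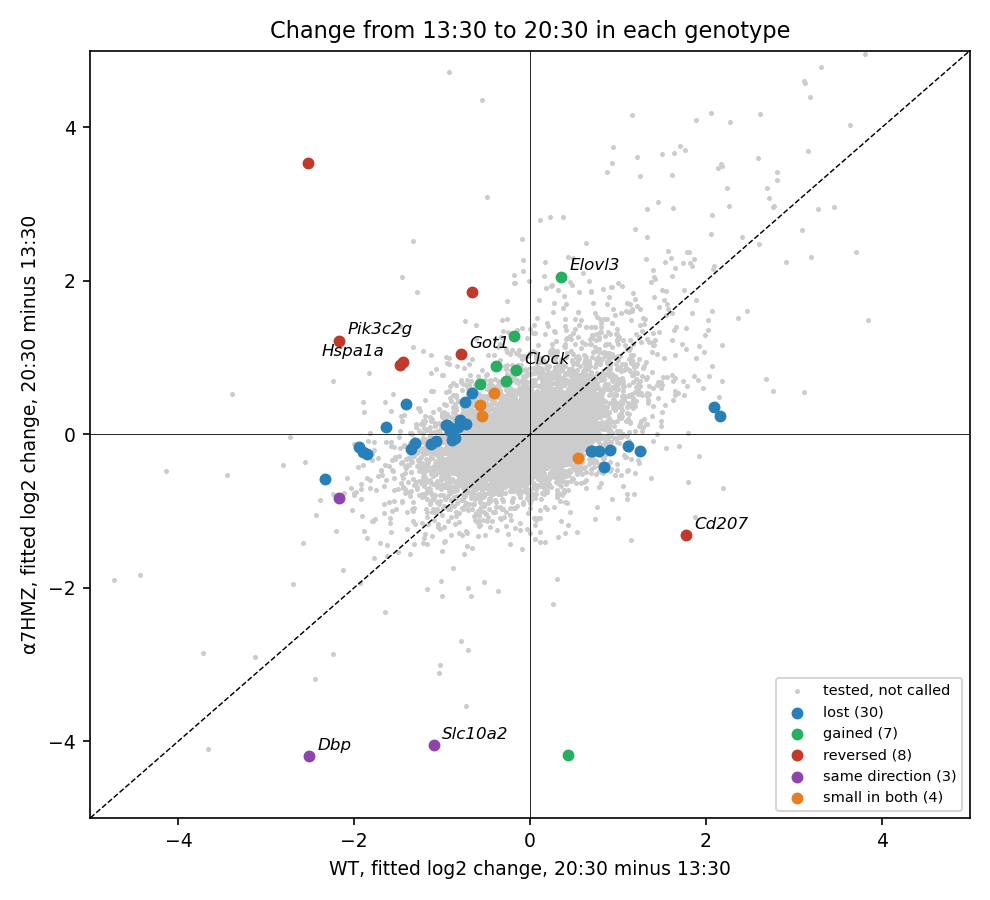
Fitted log2 change between 13:30 and 20:30 in α7HMZ livers (vertical axis) against that in WT livers (horizontal axis) for the genes tested, 3 livers in each group. Colours mark the class of the 52 called genes, with 30 lost, 7 gained and 8 reversed, and the dashed line marks equal change. Genes beyond 5 log2 units, of which 1 was called, are outside the axes. Lost genes lie between -0.58 and 0.54 on the vertical axis, most of them left of 0 on the horizontal one, and Dbp and Slc10a2 lie far below the dashed line.

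Of the clock activators, Clock passed the test. Clock had 35.5, 37.3 and 34.4 CPM at 13:30 and 66.8, 61.5 and 63.5 CPM at 20:30 in α7HMZ livers, against 47.9, 36.5 and 44.5 CPM at 13:30 and 42.8, 39.2 and 33.3 CPM at 20:30 in WT livers. Its interaction was 1.00 ± 0.17 (SE, edgeR adjusted p = 0.0212). Each α7HMZ liver at 20:30 was above every other liver, and the other 3 groups overlapped. The call ended without any one of α7HMZ replicates 1, 2 or 3 at 13:30, WT replicate 3 at 13:30, α7HMZ replicate 3 at 20:30 or WT replicate 3 at 20:30, with an interaction of 0.91 to 1.11 over the 12 fits and an edgeR adjusted p of up to 0.0747. The call also ended without the 3 libraries richest in Krt19 (0.96, edgeR adjusted p = 0.0997) and in 1 fit of all 24 libraries of the series, fasted mice included (0.99, edgeR adjusted p = 0.114).

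Arntl, which encodes BMAL1, had the largest interaction of the core clock genes but did not pass. Arntl had 1.19, 1.05 and 0.91 CPM at 13:30 and 28.2, 11.4 and 14.7 CPM at 20:30 in α7HMZ livers, against 1.97, 2.22 and 1.68 CPM at 13:30 and 5.41, 8.38 and 8.64 CPM at 20:30 in WT livers. The interaction was 2.20 ± 0.47 (SE, edgeR adjusted p = 0.0653), with a DESeq2 adjusted p of 0.000786. At 20:30 the lowest α7HMZ liver, at 11.4 CPM, was above the highest WT liver, and α7HMZ replicate 1, one of the livers rich in Krt19, was the highest of all. Left out one at a time, the libraries gave 1.72 to 2.41, and the edgeR call was made in 2 of the 12 fits.

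Dbp, a transcriptional activator of the PAR bZIP family and an output of CLOCK and BMAL1, went the other way. Dbp had 102, 126 and 129 CPM at 13:30 and 5.69, 8.18 and 5.73 CPM at 20:30 in α7HMZ livers, against 100.4, 129.8 and 124 CPM at 13:30 and 24.5, 15.4 and 21.3 CPM at 20:30 in WT livers. Its interaction was -1.69 ± 0.25 (SE, edgeR adjusted p = 0.0162). The genotypes overlapped at 13:30, and at 20:30 every α7HMZ liver was below every WT liver. Dbp thus differed between the times in both genotypes, by -4.20 in α7HMZ livers and by -2.51 in WT livers on the log2 scale. The call ended without WT replicate 3 at 20:30 (edgeR adjusted p = 0.057) and held with the 3 libraries richest in Krt19 left out (-1.50, edgeR adjusted p = 0.0421). It also ended in 1 fit of the 18 fed libraries (-1.70, edgeR adjusted p = 0.139) and in 1 fit of all 24 (-1.70, edgeR adjusted p = 0.160). Dbp overlaps the annotation of Sphk2, and without strand the reads of the shared stretch cannot be told apart. The other PAR bZIP genes, Tef at -0.14 ± 0.18 and Hlf at -0.49 ± 0.29, did not pass.

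None of the 9 repressors tested passed with edgeR or with DESeq2, and 1 of them, Cry1, had an unadjusted p under 0.05. Cry1 had 10.9, 10.8 and 10.9 CPM at 13:30 and 46.3, 39.8 and 43 CPM at 20:30 in α7HMZ livers, against 9.47, 9.41 and 13 CPM at 13:30 and 23.7, 28.9 and 29.6 CPM at 20:30 in WT livers. Its interaction was 0.61 ± 0.19 (SE, edgeR adjusted p = 0.136), and at 20:30 the α7HMZ livers did not overlap the WT livers. Per1 at 0.53 ± 0.57, Per2 at 0.52 ± 0.28 and Per3 at -0.15 ± 0.35 had wide errors. Per1 had 53.5, 15.4 and 37.5 CPM at 13:30 and 12.6, 42.6 and 27.4 CPM at 20:30 in α7HMZ livers, against 43.5, 57.3 and 52.5 CPM at 13:30 and 25.5, 23.4 and 32.9 CPM at 20:30 in WT livers. Every group overlapped another for Per1. Cry2, Bhlhe40, Bhlhe41 and Nfil3 lay between 0.19 and 0.34, and Gm129 (Ciart) lay near 0. Among the nuclear receptors of the clock, Nr1d1 at -0.44 ± 0.35 and Nr1d2 at -0.48 ± 0.31, which repress Arntl, had negative values, and Rora at 0.75 ± 0.29, which activates it, had a positive one. None of these 3 passed with edgeR or with DESeq2, and Rora had an unadjusted p under 0.05. Nr1d1, whose annotation overlaps Thra, had 84.7, 108 and 103 CPM at 13:30 and 3.73, 8.11 and 5.61 CPM at 20:30 in α7HMZ livers, against 124, 122 and 132 CPM at 13:30 and 13.7, 6.08 and 8.9 CPM at 20:30 in WT livers. Both genotypes held it at a small fraction of its 13:30 level at 20:30, and they overlapped there.

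**Figure D2:**
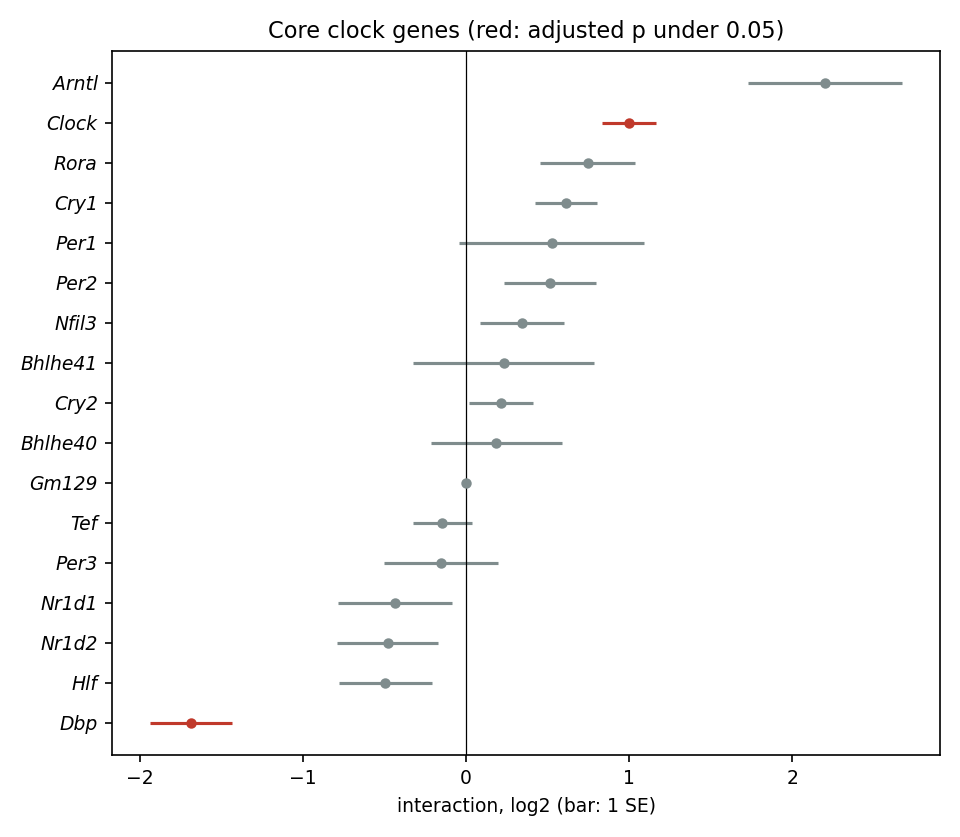
Interaction of the core clock genes reported here, in log2 units, with 1 standard error as the bar (none is drawn for Gm129, whose value is near 0). Clock, at 1.00, and Dbp, at -1.69, are drawn in red as the genes past an adjusted p of 0.05, and Arntl has the highest value, 2.20, with a wide bar.

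The promoters of Clock and Dbp, the core clock genes that passed, were read from RefSeq on build GRCm38.p6, as the 250 bases before a transcript start. They were searched on both strands for CACGTG (E-box), TTATGTAA or TTACGTAA (D-box), AGGTCA (nuclear receptor half-site) and CAAAGTCCA (HNF4 motif). Of 32851 such windows in the genome, 6.02% held the E-box, 0.931% a D-box, 14.0% the half-site and 0.384% the HNF4 motif. Capitals mark a match, which is the half-site at 119 bases before 1 of the 3 Clock starts, read on the other strand. That window lies wholly inside the annotated Clock gene (chr5:76209868-76304792, minus strand). The windows of the other 2 Clock starts lie nearer the upstream end of the gene and are not printed here. They and the window of Dbp hold none of these letters. The Dbp window crosses the annotated start of the gene (chr7:45705088-45710203, plus strand), so it is not all upstream sequence. Sequence further upstream was not searched.
Clock, chr5:76303503-76303752, minus strand: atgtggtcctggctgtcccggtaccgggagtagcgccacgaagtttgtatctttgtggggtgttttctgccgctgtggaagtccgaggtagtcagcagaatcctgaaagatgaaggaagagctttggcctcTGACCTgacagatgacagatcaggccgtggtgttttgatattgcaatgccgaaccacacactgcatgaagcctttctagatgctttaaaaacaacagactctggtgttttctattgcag
Dbp, chr7:45704997-45705246, plus strand: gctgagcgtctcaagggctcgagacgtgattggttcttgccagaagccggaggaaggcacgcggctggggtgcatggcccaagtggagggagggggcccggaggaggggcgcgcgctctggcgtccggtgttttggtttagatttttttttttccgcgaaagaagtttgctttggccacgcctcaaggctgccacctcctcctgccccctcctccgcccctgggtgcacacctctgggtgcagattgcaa
Over the 29 called genes found in the promoter table, the E-box was present for 2 (2310039H08Rik and Sorl1), the half-site for 4 (Clock, Got1, Lrba and Plekha8), and the D-box and the HNF4 motif for 0.

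Among 29 clock output genes, Elovl3 passed with edgeR, and 2 positive and 1 negative gene passed with DESeq2. Elovl3 encodes an elongase of very long chain fatty acids that is male-biased and rhythmic in mouse liver. Elovl3 had 38.1, 38.5 and 44.6 CPM at 13:30 and 202, 152 and 149 CPM at 20:30 in α7HMZ livers, against 119, 169 and 138 CPM at 13:30 and 144, 151 and 249.7 CPM at 20:30 in WT livers. The interaction was 1.70 ± 0.28 (SE, edgeR adjusted p = 0.0212). α7HMZ livers at 13:30 stood below all other livers, and the 2 genotypes overlapped at 20:30. The call ended without α7HMZ replicates 1, 2 or 3 or WT replicate 3 at 13:30, or WT replicate 2 at 20:30 (edgeR adjusted p up to 0.0747, interaction 1.55 to 2.02 over the 12 fits). It also ended for Elovl3 without the 3 libraries richest in Krt19 (1.45, edgeR adjusted p = 0.0917), in 1 fit of the 18 fed libraries (1.68, edgeR adjusted p = 0.0957) and in 1 fit of all 24 (1.68, edgeR adjusted p = 0.178). With Elovl3, 7 output genes had a positive and 2 a negative value at an unadjusted p under 0.05 (24.1% and 6.9%, against 9.21% and 7.35% of all genes), among them Wee1 at -1.13 ± 0.26, a kinase that holds back mitosis, and Bhmt at 1.29 ± 0.27, betaine-homocysteine methyltransferase.

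The call with the smallest adjusted p was Got1 (chr19:43499752-43524605, minus strand), which encodes cytosolic aspartate aminotransferase of the malate-aspartate shuttle. Got1 had 154, 154 and 199 CPM at 13:30 and 332, 353 and 362 CPM at 20:30 in α7HMZ livers, against 529, 598 and 602 CPM at 13:30 and 303, 337 and 365 CPM at 20:30 in WT livers. The interaction was 1.83 ± 0.17 (SE, edgeR adjusted p = 0.000451), and it stayed between 1.73 and 1.93 in the 12 fits with 1 library left out. At 13:30 each α7HMZ liver was below every WT liver, and at 20:30 the genotypes overlapped. Its fitted change between the times was 1.05 in α7HMZ livers and -0.78 in WT livers, which put it in the reversed class. It was the only one of 33 urea cycle and amino acid genes to pass with edgeR. At an unadjusted p under 0.05, 5 were positive and 1 negative (15.2% and 3.03%, against 9.21% and 7.35% of all genes). DESeq2 called 5, all positive, where 2.76% of all genes with a DESeq2 adjusted p were called positive. The other 4 were Bhmt, Slc25a15, a mitochondrial ornithine carrier, Cth, cystathionine gamma-lyase, and Cps1, the first enzyme of the urea cycle.

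**Figure D3:**
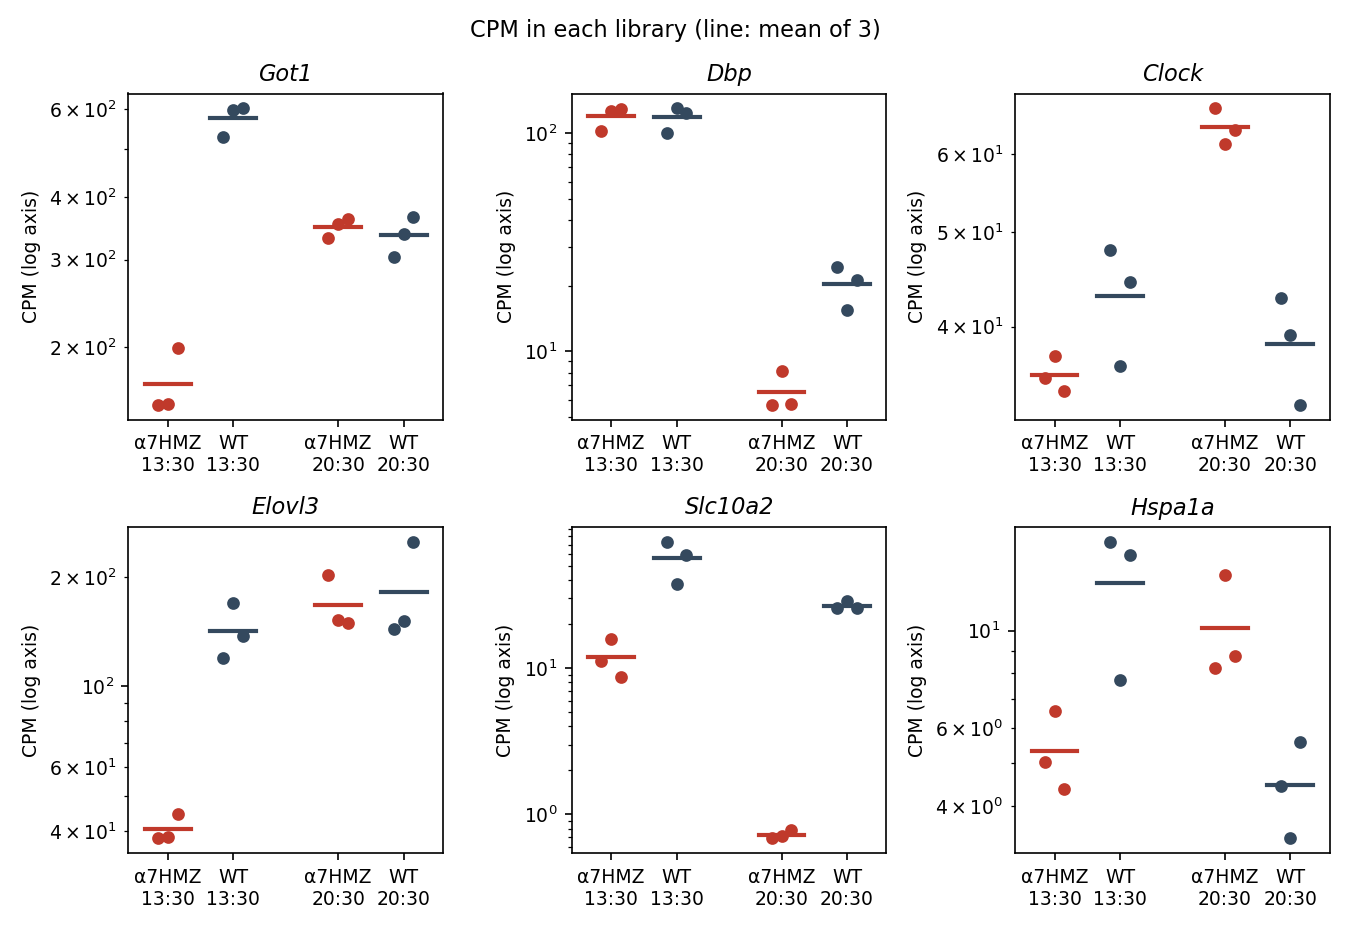
CPM of 6 genes in each liver on log axes, with α7HMZ in red, WT in dark blue and the mean of 3 livers as a line. Got1 and Elovl3 differ between genotypes at 13:30 and overlap at 20:30, Dbp overlaps at 13:30 and differs at 20:30, and Slc10a2 differs at both times.

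The reversed class also held Cd207 and Pik3c2g. Cd207 (chr6:83671215-83677857) encodes langerin, a lectin known from Langerhans cells. In whole liver, fewer cells of a type and less RNA per cell cannot be told apart. Cd207 had 6.95, 8.77 and 8.49 CPM at 13:30 and 3.34, 2.73 and 3.58 CPM at 20:30 in α7HMZ livers, against 1.35, 2.5 and 2.7 CPM at 13:30 and 5.51, 10.1 and 7.44 CPM at 20:30 in WT livers. Its interaction was -3.10 ± 0.36 (SE, edgeR adjusted p = 0.00317). The order of the genotypes turned round between the times, with every α7HMZ liver above every WT liver at 13:30 and below every WT liver at 20:30. Pik3c2g, which encodes a class II phosphoinositide 3-kinase of liver, had the opposite pattern. Pik3c2g had 4.11, 4.73 and 2.24 CPM at 13:30 and 12.1, 3.83 and 10.1 CPM at 20:30 in α7HMZ livers, against 7.93, 7.72 and 7.69 CPM at 13:30 and 1.85, 1.89 and 1.46 CPM at 20:30 in WT livers. The interaction was 3.39 ± 0.51 (SE, edgeR adjusted p = 0.0162). Its call ended without WT replicate 3 at 20:30 (3.07 to 3.70 over the 12 fits, edgeR adjusted p up to 0.058) and without the 3 livers rich in Krt19 (2.24, edgeR adjusted p = 0.0672). Sorl1, Pde6h and Erp27 were also in this class. Pde6h and Erp27 are neighbours on chromosome 6 and stayed below 1 CPM in every library, with 0 counts of Pde6h in 6 of them, so their fitted values depend on the prior count and are not given as folds here. α7HMZ replicates 1 and 3 at 20:30, both rich in Krt19, carried all of their reads in that group.

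The remaining members of the reversed class were the inducible HSP70 genes Hspa1a (chr17:34969190-34972156) and Hspa1b (chr17:34956436-34959238), chaperones switched on by heat shock factors. Hspa1a had 5.03, 6.59 and 4.37 CPM at 13:30 and 8.22, 13.4 and 8.78 CPM at 20:30 in α7HMZ livers, against 15.9, 7.72 and 14.8 CPM at 13:30 and 4.43, 3.38 and 5.58 CPM at 20:30 in WT livers. Hspa1b had 12.2, 14.3 and 9.88 CPM at 13:30 and 17.8, 31.8 and 21.3 CPM at 20:30 in α7HMZ livers, against 40.9, 16.7 and 31.6 CPM at 13:30 and 10.4, 9.06 and 12.8 CPM at 20:30 in WT livers. The interactions were 2.38 ± 0.40 (SE, edgeR adjusted p = 0.0213) for Hspa1a and 2.40 ± 0.41 (SE, edgeR adjusted p = 0.0226) for Hspa1b. At 20:30 every α7HMZ liver was above every WT liver, and at 13:30 every α7HMZ liver was below every WT liver. The genes are near-identical copies and the split of reads between them is uncertain, so they count as 1 observation at most. Their 250-base promoters (RefSeq, GRCm38.p6) differ at 3 positions and share 247. GAANNTTC, a heat shock element searched for after the values were seen and present in 6.69% of all windows, is marked in capitals in both at 104 bases before the start.
Hspa1a, chr17:34972157-34972406, minus strand: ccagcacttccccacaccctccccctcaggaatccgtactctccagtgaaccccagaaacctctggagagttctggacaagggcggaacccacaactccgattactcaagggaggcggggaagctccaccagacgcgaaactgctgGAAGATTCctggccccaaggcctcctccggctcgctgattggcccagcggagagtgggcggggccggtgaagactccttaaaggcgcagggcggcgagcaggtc
Hspa1b, chr17:34959239-34959488, minus strand: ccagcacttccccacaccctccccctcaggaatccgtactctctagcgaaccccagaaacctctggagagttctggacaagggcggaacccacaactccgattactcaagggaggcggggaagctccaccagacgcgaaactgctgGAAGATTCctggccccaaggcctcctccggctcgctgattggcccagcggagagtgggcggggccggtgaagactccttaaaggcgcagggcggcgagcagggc
The Hspa1a call ended without any one of 7 libraries (α7HMZ replicates 1 and 3 and WT replicate 3 at 13:30, and α7HMZ replicate 3 and all 3 WT replicates at 20:30), and that of Hspa1b without these or α7HMZ replicate 2 at 13:30. The interaction stayed between 2.09 and 2.69, with an edgeR adjusted p of up to 0.0747. That of Hspa1b also ended in 1 fit of the 18 fed libraries (2.39, edgeR adjusted p = 0.0572). Both calls ended with the replicate number as a block in the fit (edgeR adjusted p = 0.064 for Hspa1a and 0.066 for Hspa1b).

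Other chaperone genes had values of the same sign. Of 19 heat shock and cold-inducible genes, 2 passed with edgeR and 5 with DESeq2, all positive, and 8 were positive and 0 negative at an unadjusted p under 0.05 (42.1% against 9.21% of all genes). Their median interaction was 0.47. Both edgeR calls are Hspa1a and Hspa1b. With that pair counted once, 1 of 18 passed with edgeR and 4 with DESeq2, 7 were positive at an unadjusted p under 0.05 (38.9%), and the median was 0.40. Hsph1, an HSP110 chaperone, was at 1.60 ± 0.34, Bag3, a co-chaperone, at 1.32 ± 0.35, and Dnajb1, an HSP40, at 0.85 ± 0.23. Hsph1 had 72.6, 64.7 and 71.1 CPM at 13:30 and 68.3, 118 and 77.5 CPM at 20:30 in α7HMZ livers, against 186, 85.4 and 126 CPM at 13:30 and 47.5, 61.2 and 57.3 CPM at 20:30 in WT livers. For each of these 8 genes WT replicate 1 was the highest and WT replicate 2 the lowest WT liver at 13:30. Of 26 genes of the unfolded protein and integrated stress responses, none passed with edgeR or DESeq2, and 5 were positive and 0 negative at an unadjusted p under 0.05 (19.2%), with a median of 0.38. They were Hspa5, Dnajb9, Herpud1, Edem1 and Sel1l, all of the endoplasmic reticulum, between 0.61 and 1.30. For each of these 5 genes too, WT replicate 1 was the highest WT liver at 13:30. The part of that liver in their values was not tested. Hspa5, the main chaperone of that compartment, had 846, 748 and 1054 CPM at 13:30 and 593, 1032 and 777 CPM at 20:30 in α7HMZ livers, against 1950, 797 and 1086 CPM at 13:30 and 514, 751 and 574 CPM at 20:30 in WT livers. The WT livers at 13:30 spread from 797 to 1950 CPM, and the genotypes overlapped at both times. All WT livers at 20:30, at up to 751 CPM, were below those at 13:30, and α7HMZ livers overlapped between the times.

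Slc10a2 (chr8:5083219-5105351), which encodes the apical sodium-dependent bile acid transporter of ileum and bile duct, changed the same way in both genotypes by different amounts. Slc10a2 had 11.3, 16 and 8.73 CPM at 13:30 and 0.685, 0.714 and 0.776 CPM at 20:30 in α7HMZ livers, against 73.2, 37.8 and 59.9 CPM at 13:30 and 25.8, 28.8 and 25.7 CPM at 20:30 in WT livers. The interaction was -2.96 ± 0.41 (SE, edgeR adjusted p = 0.0112). Every α7HMZ liver was below every WT liver at both times, and the gap was wider at 20:30. The value stayed between -3.18 and -2.73 with single libraries left out, and was -2.92 without the 3 livers rich in Krt19 (edgeR adjusted p = 0.108). Of 24 bile acid genes 4 were positive and 4 negative at an unadjusted p under 0.05 (16.7% each, against 9.21% and 7.35% of all genes), none passed with edgeR, and DESeq2 called Akr1d1 as positive and Amacr as negative. Slc10a2 itself is not on that list, and Slc10a5, an orphan member of the same carrier family, had an interaction of 0.95 ± 0.18 (SE, edgeR adjusted p = 0.0372). Abcd2, a peroxisomal fatty acid transporter, was also in this class, with a positive interaction of 1.34 ± 0.25 (SE, edgeR adjusted p = 0.0365). Its fitted change between the times was -0.83 in α7HMZ livers and -2.17 in WT livers. The Slc10a5 call was made in 3 of the 12 fits with 1 library left out, and that of Abcd2 in 5. Both ended with the replicate number as a block in the fit (edgeR adjusted p = 0.064 for Slc10a5 and 0.0767 for Abcd2).

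The lost class with WT livers lower at 20:30 held 21 genes. Rapgef2, an exchange factor for Rap GTPases, had 18.6, 18.6 and 18.7 CPM at 13:30 and 18.1, 19.3 and 20.2 CPM at 20:30 in α7HMZ livers, against 25.1, 24.3 and 26.2 CPM at 13:30 and 13.3, 13.5 and 13.5 CPM at 20:30 in WT livers. Its interaction was 0.95 ± 0.13 (SE, edgeR adjusted p = 0.0112), and the α7HMZ livers at the 2 times lay within the same narrow band while the WT livers did not overlap. Mtmr4, a phosphoinositide phosphatase of endosomes, had 42.1, 35.1 and 41.5 CPM at 13:30 and 52.8, 57.6 and 61.6 CPM at 20:30 in α7HMZ livers, against 96.8, 74.3 and 82.2 CPM at 13:30 and 49.4, 58.7 and 52.1 CPM at 20:30 in WT livers. Its interaction was 1.20 ± 0.17 (SE, edgeR adjusted p = 0.0133). The α7HMZ livers at 20:30 were all above those at 13:30 and the WT livers at 20:30 all below those at 13:30, so that it was near the reversed class, with a change of 0.54 in α7HMZ livers and -0.66 in WT livers. Neb, the giant thin-filament protein of skeletal muscle, had an interaction of 1.81 ± 0.26 (SE, edgeR adjusted p = 0.0162). Neb had 14.5, 11.5 and 14.6 CPM at 13:30 and 13.4, 20.9 and 19.4 CPM at 20:30 in α7HMZ livers, against 33.9, 34.4 and 35.3 CPM at 13:30 and 14.4, 15.6 and 9.37 CPM at 20:30 in WT livers. Also in this class were Znrf2, an E3 ubiquitin ligase, at 1.73 ± 0.26, Med1, the Mediator subunit that binds nuclear receptors, at 1.01 ± 0.16, Creb3l2, a transcription factor held in the endoplasmic reticulum membrane, at 1.67 ± 0.27, and the gene listed as Mll2 at 1.00 ± 0.16. Med1 had 38.8, 32.4 and 34.8 CPM at 13:30 and 37.8, 35.2 and 39.8 CPM at 20:30 in α7HMZ livers, against 49.6, 41.2 and 46.9 CPM at 13:30 and 26.1, 25 and 21.4 CPM at 20:30 in WT livers. For Med1 the α7HMZ livers kept to 32.4 to 39.8 CPM over both times, and the WT livers at 20:30 were below every other liver. Of the rest, Mbd1, a methyl-CpG binding protein, Smg1, a kinase of nonsense-mediated decay, Chd6, a chromatin remodeller, and Atp2a2, the calcium pump of the endoplasmic reticulum, ran from 0.81 to 1.75. The calls of Med1 and Mll2 were made in 7 of the 12 fits with 1 library left out, that of Creb3l2 in 8 and that of Znrf2 in 11. Those of Mbd1, Smg1, Chd6 and Atp2a2 were made in 7, 6, 3 and 2 of them.

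Transcript length moved with this class. The longest annotated transcript had a median length of 5674 bases for the called positive genes and 2195.5 bases for the called negative genes, against 3318.5 bases for all genes tested. In 5 groups of equal size by length, short to long, the median interaction was -0.19, -0.05, 0.01, 0.08 and 0.24, and the longest group held 23 of the positive calls. In α7HMZ livers the median change between the times in these groups was 0.05, 0.05, 0.02, -0.01 and -0.09, and in WT livers it was 0.24, 0.12, 0.01, -0.10 and -0.33. The 3 WT libraries at 20:30 had relatively fewer counts of long than of short genes, with a rank correlation over 13186 genes between length and a gene's deviation from its mean of -0.29 to -0.42, against -0.06 to 0.34 in the other 9 libraries. These correlations are over genes of the same libraries and are given as a description. Of the 21 lost genes with lower WT levels at 20:30, 15 were in the longest group. Length offsets removed a trend with length within each library and then matched full quantiles between libraries, and these steps were not run separately. With these offsets, 17 genes were positive and 15 negative, 23 of the 52 were called again, all 52 kept their sign, and 5 of those 21 genes were called. Of the 25 called genes named here by rule, 17 were called again, among them Got1, Rapgef2, Mtmr4, Pik3c2g, Elovl3, Dbp, Hspa1a, Hspa1b, Cd207 and Slc10a2. The calls that ended, with the interaction and its edgeR adjusted p in brackets, were those of Clock (0.68, 0.114), Neb (1.18, 0.0797), Med1 (0.72, 0.079), Creb3l2 (1.34, 0.0757), Lrba (0.43, 0.203), Acacb (1.23, 0.107), Pcp4l1 (-1.61, 0.0797) and 2310039H08Rik (-0.75, 0.0961). The part of RNA integrity or library preparation in the trend was not tested.

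**Figure D4:**
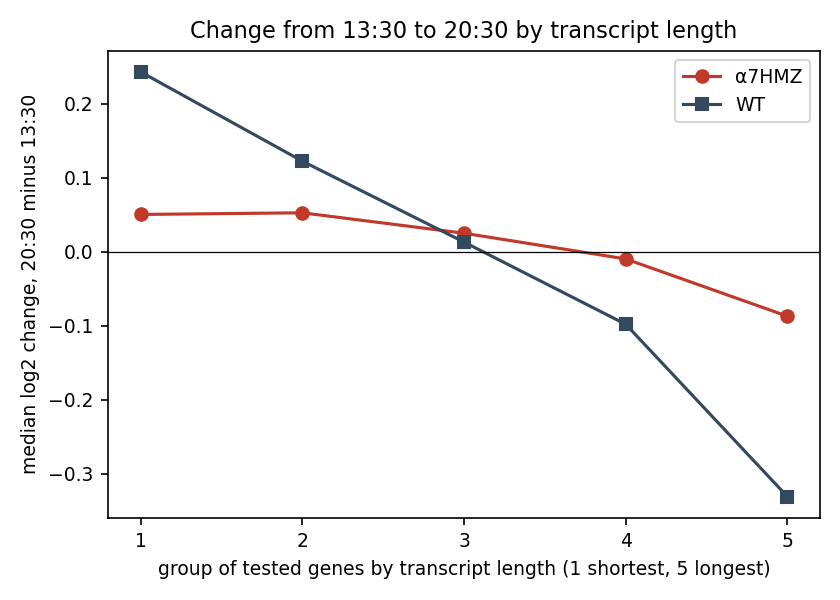
Median fitted log2 change between 13:30 and 20:30 in α7HMZ livers (red circles) and in WT livers (dark blue squares), in 5 groups of equal size of the genes tested, ordered by transcript length. The WT line runs down to -0.33 in the longest group and up to 0.24 in the shortest, and the α7HMZ line stays between -0.09 and 0.05.

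The lost class with WT livers higher at 20:30 held 9 genes, 5 of them in the group of shortest transcripts. 8430419L09Rik (chr6:135197977-135244955) led it. 8430419L09Rik had 78, 76.7 and 81.3 CPM at 13:30 and 68.9, 80.5 and 63.7 CPM at 20:30 in α7HMZ livers, against 28.7, 29.9 and 32.4 CPM at 13:30 and 63.4, 64.6 and 69 CPM at 20:30 in WT livers. The interaction was -1.26 ± 0.14 (SE, edgeR adjusted p = 0.00295), and the 3 WT livers at 13:30 stood below all other livers, which overlapped. Its annotation overlaps Gsg1 and Hebp1. Pcp4l1, a small calmodulin-related protein of neurons, had 132, 97.3 and 74.7 CPM at 13:30 and 117, 108 and 165 CPM at 20:30 in α7HMZ livers, against 4.42, 4.48 and 5.17 CPM at 13:30 and 18.7, 18.6 and 22.5 CPM at 20:30 in WT livers. Its interaction was -1.74 ± 0.29 (SE, edgeR adjusted p = 0.0212), and α7HMZ livers were above WT livers at both times without overlap. Inhbc, the inhibin beta C subunit made by liver, was at -0.91 ± 0.15, Paqr7, a membrane progestin receptor, at -1.46 ± 0.24, Slc52a2, a riboflavin transporter, at -1.11 ± 0.20, and Ttc23 and 2310039H08Rik at -0.93 ± 0.15 and -0.998 ± 0.17. These calls were made in 5 to 8 of the 12 fits with 1 library left out. The class also held Hist1h1c, a linker histone, at -1.92 ± 0.37 (SE, edgeR adjusted p = 0.0429), whose call was made in 2 of those 12 fits.

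The gained class held 7 genes, Clock and Elovl3 among them. Acacb, the acetyl-CoA carboxylase whose malonyl-CoA restrains mitochondrial fatty acid uptake, had 22.8, 14 and 23.6 CPM at 13:30 and 51.1, 45.2 and 50.4 CPM at 20:30 in α7HMZ livers, against 57.9, 69.3 and 84.1 CPM at 13:30 and 72.7, 66.1 and 47.4 CPM at 20:30 in WT livers. Its interaction was 1.46 ± 0.28 (SE, edgeR adjusted p = 0.0429). α7HMZ livers at 13:30 were below all others, and the genotypes overlapped at 20:30. The call was made in 4 of the 12 fits with 1 library left out, and ended without any of α7HMZ replicates 1 to 3 or WT replicate 3 at 13:30, or α7HMZ replicate 2 or 3 or WT replicate 2 or 3 at 20:30 (1.22 to 1.60, edgeR adjusted p up to 0.125). It also ended for Acacb without the 3 libraries richest in Krt19 (1.40, edgeR adjusted p = 0.136), in 1 fit of the 18 fed libraries (1.45, edgeR adjusted p = 0.0621) and in 1 fit of all 24 (1.45, edgeR adjusted p = 0.0597). Upper quartile factors ended the Acacb call as well, as did the replicate number as a block (1.47, edgeR adjusted p = 0.0846). S100a10, an annexin partner, was at 0.98 ± 0.18 and Banp, a nuclear matrix protein, at 1.28 ± 0.24. With 1 library left out, the S100a10 call was made in 5 of the 12 fits and that of Banp in 2. Myom2, a myosin-binding protein of the sarcomere, had 4.03, 1.21 and 3.03 CPM at 13:30 and 0, 0.454 and 0.0597 CPM at 20:30 in α7HMZ livers, against 11.2, 17.9 and 18 CPM at 13:30 and 24.3, 25 and 14.6 CPM at 20:30 in WT livers. It was the only gained gene with a negative value, and 1 of its α7HMZ livers at 20:30 had no read. The Myom2 call was made in 6 of the 12 fits with 1 library left out, where its interaction ran from -6.92 to -3.86. Without the 3 libraries richest in Krt19 the interaction of Myom2 was -2.89. Mir135a-1 lies inside Glyctk and its reads cannot be told apart from those of that gene.

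Few genes of the metabolic lists passed, and their medians differed in sign. Of 24 genes that make fatty acids and triglycerides, Acacb passed with edgeR, 2 with DESeq2 and 6 at an unadjusted p under 0.05 (25% against 9.21% of all genes), all positive, with a median interaction of 0.33. They included Scd1, the stearoyl-CoA desaturase, at 1.37 ± 0.42, and Acss2, an acetyl-CoA synthetase, at 0.79 ± 0.18. Scd1 had 1197, 1776 and 921 CPM at 13:30 and 1026, 1644 and 1588 CPM at 20:30 in α7HMZ livers, against 4778, 11040 and 7401 CPM at 13:30 and 3736, 2493 and 3581 CPM at 20:30 in WT livers. For Scd1 every α7HMZ liver was below every WT liver at both times, and α7HMZ livers overlapped between the times. Of 24 genes of cholesterol synthesis and uptake none passed with edgeR or DESeq2, 5 were positive at an unadjusted p under 0.05 (20.8%), and 21 were above 0, with a median of 0.33. The median change between the times was 0.11 in α7HMZ livers and -0.27 in WT livers. Hmgcs1, an early enzyme of the pathway, was at 0.95 ± 0.33, and WT replicate 2, a liver rich in Krt19, was the highest WT liver at 20:30 with 182 CPM, against 92.7 and 108 CPM.

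Genes of fatty acid oxidation and PPARα targets lay on the other side. None of 31 passed with edgeR or DESeq2, 0 were positive and 9 negative at an unadjusted p under 0.05 (29.0% against 7.35% of all genes), and 5 were above 0, with a median of -0.39. Their median change between the times was 0.15 in α7HMZ livers and 0.46 in WT livers. Vnn1, a pantetheinase and PPARα target, was at -1.27 ± 0.41 and Cyp4a14, a fatty acid hydroxylase, at -1.19 ± 0.54. Vnn1 had 67.7, 59.5 and 57.2 CPM at 13:30 and 43.8, 57.9 and 38.7 CPM at 20:30 in α7HMZ livers, against 25.3, 18.9 and 19.3 CPM at 13:30 and 61.5, 19.2 and 33.6 CPM at 20:30 in WT livers. α7HMZ livers had more Vnn1 than WT livers at 13:30, and the groups overlapped at 20:30. With the length offsets the list's median was -0.26, with 6 negative genes at an unadjusted p under 0.05.

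Of 42 cytochrome P450 genes and xenobiotic receptors none passed with edgeR, 2 were positive and 11 negative at an unadjusted p under 0.05 (4.76% and 26.2%, against 9.21% and 7.35% of all genes), and DESeq2 called 1 positive and 4 negative, with a median of -0.15. With the length offsets the negative number was 5 and the median -0.04. Several negative genes are family neighbours. Cyp2d9, Cyp2d10, Cyp2d26 and Cyp2d40 on chromosome 15 ran from -0.52 to -0.45. Cyp2c40, Cyp2c67 and Cyp2c69 on chromosome 19 ran from -0.71 to -0.62. On the same chromosome and also at an unadjusted p under 0.05, Cyp2c44 was at -0.79 ± 0.23. Cyp2c50, there too, went the other way at 0.63 ± 0.29. Each is counted as a gene of its own here, although such neighbours may not be independent observations. Cyp17a1, a steroid hydroxylase, was at -1.19 ± 0.27, Cyp2e1, an ethanol-inducible enzyme, at -0.81 ± 0.21, and Cyp2b10, a target of the receptor CAR, at 1.61 ± 0.41. Cyp2b9, on the same chromosome as Cyp2b10, had the lowest value of the list, -1.78 ± 0.53. Cyp17a1 had 67.6, 58.1 and 91.7 CPM at 13:30 and 108, 146 and 146 CPM at 20:30 in α7HMZ livers, against 8.22, 9.34 and 10.9 CPM at 13:30 and 37.8, 49.2 and 33.1 CPM at 20:30 in WT livers. Both genotypes had more Cyp17a1 at 20:30 without overlap between times, and α7HMZ livers were above WT livers at both. Among 27 sex-biased genes Elovl3 passed with edgeR, 3 were positive and 6 negative at an unadjusted p under 0.05 (11.1% and 22.2%), and the median was -0.40, or -0.17 with the length offsets. Hsd3b5, a male-biased steroid dehydrogenase, had 105, 106 and 169.6 CPM at 13:30 and 6.51, 19.4 and 18.8 CPM at 20:30 in α7HMZ livers, against 190.4, 209 and 192 CPM at 13:30 and 89.9, 85.6 and 112 CPM at 20:30 in WT livers. Its interaction was -2.07 ± 0.42 (SE, edgeR adjusted p = 0.0524). Of 36 HNF4α targets and hepatocyte factors none passed with edgeR, 3 were positive and 4 negative at an unadjusted p under 0.05 (8.33% and 11.1%, near the shares of all genes), and DESeq2 called Onecut2 at 0.76, with a median of -0.17. With the length offsets the median of that list was -0.01, with 1 positive and 1 negative gene at an unadjusted p under 0.05.

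**Figure D5:**
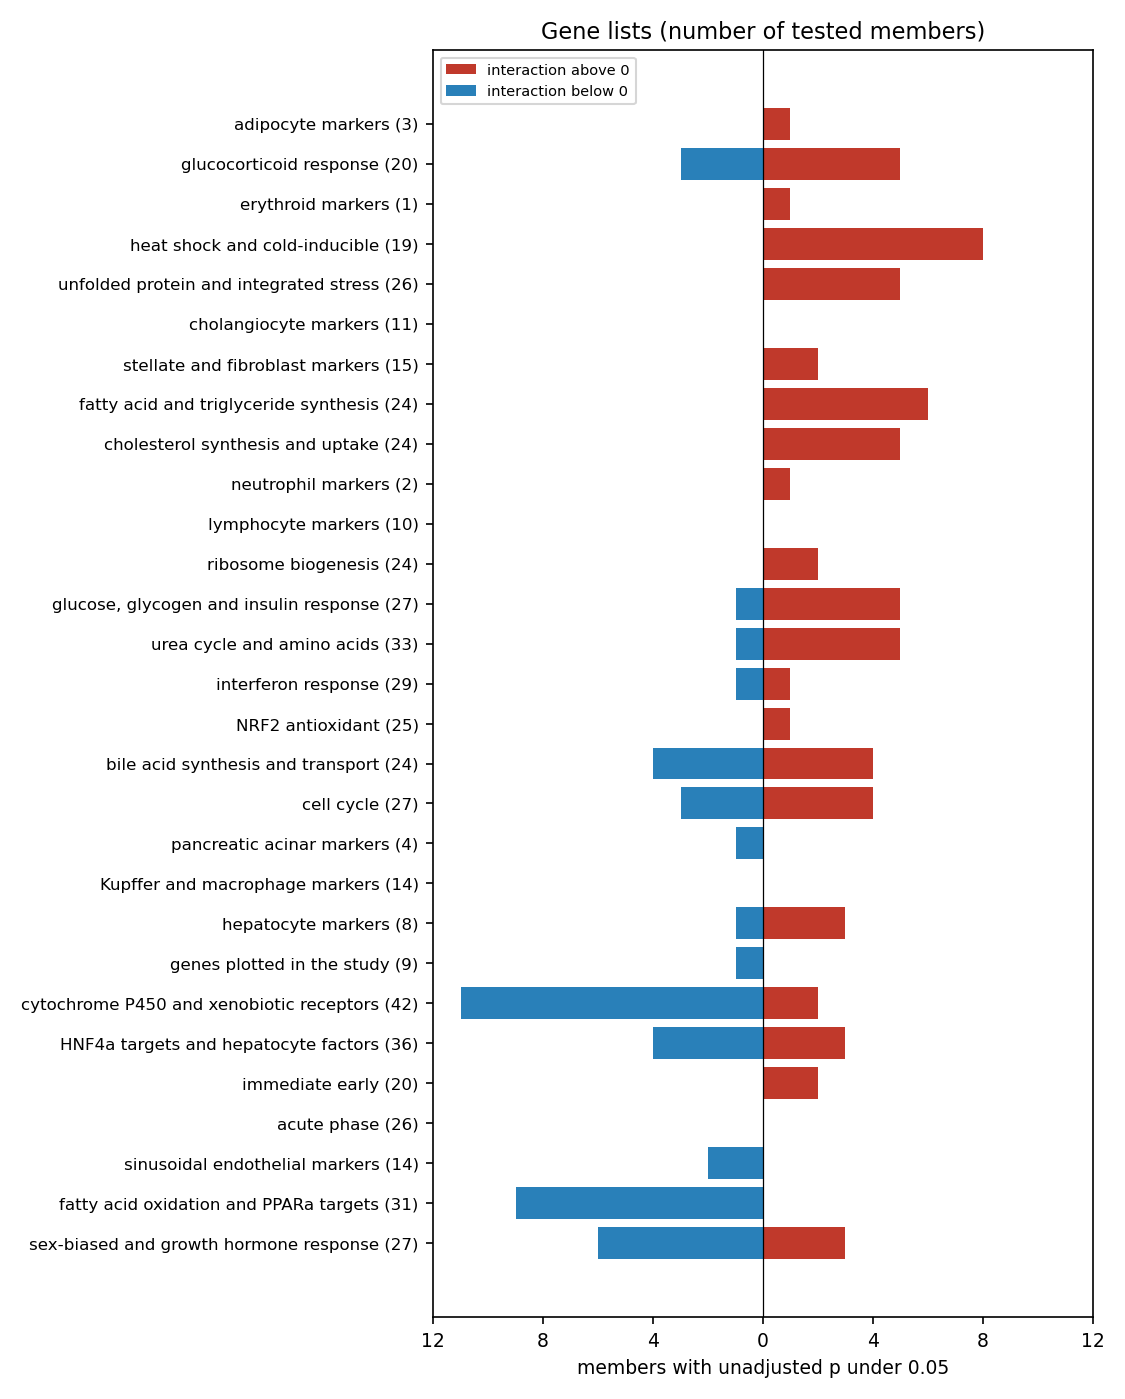
Number of members of each gene list with an unadjusted p under 0.05, with positive interactions to the right in red and negative ones to the left in blue, and the number of tested members in brackets. Lists run from the highest median interaction at the top to the lowest at the bottom. Heat shock genes have 8 positive and 0 negative members, with Hspa1a and Hspa1b as separate members, and fatty acid oxidation genes 0 positive and 9 negative.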

How the data were processed

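Per the labels and the study's methods, livers of 3 mice a group were sequenced as poly(A) libraries (TruSeq, no strand), aligned to mm10 with TopHat2 2.1.1 and counted per gene with HTSeq 0.6.1. The deposited table holds whole-number counts, which the authors did not normalize. The 24 deposited FPKM tables, the authors' normalized values, were not used here. Every row names a gene, and no column of the table was left unmapped. The depth of 8545959 to 28445590 counts sets the precision of low genes.

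The counts of 12 libraries were fitted with 1 mean per group (edgeR 4.0.16, limma 3.58.1, R 4.3.3; TMM factors, filterByExpr, glmQLFit and glmQLFTest), and p-values were adjusted over all 13290 genes by Benjamini-Hochberg. SE is the size of the interaction divided by the root of F. CPM were scaled with the TMM factors. DESeq2 1.42.0 was the alternative tool. The study's own normalization (GC content, then full quantile) was rebuilt with loess offsets as an alternative. Other alternatives were other factors, filters, sets of libraries and a replicate block. Offsets on transcript length, followed by full quantiles between libraries, were added after seeing the data. The fit was tested on simulated data.

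Named by rule were the 10 called genes of smallest p on each side of 0 (mean log2 CPM 1 or more), the genes tested of 4 clock lists, up to 3 passing genes of each other list and Hnf4a, of which 2 are not reported here. Others were chosen after their values were seen. The members and the 25 lists were chosen with earlier results of these data known. Gene positions are from GENCODE on the same build, where 371 of 23411 names found no match. The replicate libraries come from separate mice, and none agreed within sampling noise with another.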

Additional observations from a re-analysis of the deposited data

Results flagged for a closer look

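The genotype effect differed between 20:30 and 13:30 by the edgeR interaction test itself for the 25 called genes named by rule, whose log2 values are repeated here. The positive ones were Got1 at 1.83, Rapgef2 at 0.95, Mtmr4 at 1.20, Neb at 1.81, Pik3c2g at 3.39, Znrf2 at 1.73, Med1 at 1.01, Creb3l2 at 1.67, Mll2 at 1.00, Lrba at 0.78, Clock at 1.00, Elovl3 at 1.70, Acacb at 1.46, Hspa1a at 2.38 and Hspa1b at 2.40. The negative ones were 8430419L09Rik at -1.26, Cd207 at -3.10, Slc10a2 at -2.96, Dbp at -1.69, Ttc23 at -0.93, Inhbc at -0.91, Paqr7 at -1.46, Pcp4l1 at -1.74, 2310039H08Rik at -0.998 and Slc52a2 at -1.11. Hspa1a and Hspa1b are near-identical copies, Mll2 has no match in the annotation, and Clock, Neb, Med1, Creb3l2, Lrba, Acacb, Pcp4l1 and 2310039H08Rik were not called with the transcript length offsets. The causes of the differences were not tested.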

How the results depend on the processing

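The numbers of genes with a positive and a negative interaction, 38 and 14, were 35 and 15 with relative log expression factors, 29 and 16 with upper quartile factors, 39 and 18 with offsets for GC content and full quantiles, 37 and 18 with at least 50 counts in 3 libraries, and 38 and 14 without Rn45s. Genes with an absolute interaction of at least 1 numbered 26 and 10. Larger shifts came from DESeq2 (267 and 147), no filter on low counts (94 and 32), 1 fit of 18 fed libraries (15 and 15), 1 fit of 24 libraries (11 and 8), transcript length offsets (17 and 15) and leaving out the 3 libraries richest in Krt19 (29 and 37). Leaving out single libraries gave 7 to 99 positive and 3 to 36 negative genes. The cause was not tested. Erp27, near 0 in several libraries, turned to -0.53 without those 3 libraries. The other 51 called genes kept their sign under every alternative in which they were tested.

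The replicate numbers do not pair the mice: over 18 pairs of same-numbered libraries of different groups, deviations from the group means correlated at -0.125 to 0.127, and 1 pair was over 0.1. With the replicate number as a block, 15 genes were positive and 10 negative, and 24 of the 52 were called again.

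With 3 mice a group, low-count genes are limited by depth, and 2 times cannot give a phase. The WT libraries at 20:30 hold fewer counts of long genes, and this cannot be told apart from group and time.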

Other observations

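Glucocorticoid-responsive genes had the highest median interaction of the pathway lists outside the clock, 0.50 over 20 genes, with none past edgeR's threshold, 2 called by DESeq2 (Zbtb16 at 1.22 and Klf9 at 0.71), and 5 positive and 3 negative genes at an unadjusted p under 0.05 (25% and 15%, against 9.21% and 7.35% of all genes). The negative ones were the metallothioneins Mt1 and Mt2 and the corticosteroid carrier gene Serpina6, so the members differed in sign. Of 27 genes of glucose, glycogen and insulin response, 5 were positive and 1 negative at an unadjusted p under 0.05 (18.5% and 3.7%), none passed with edgeR and 1 with DESeq2, Foxo3 at 1.04. Of 26 acute phase genes, 0 had an unadjusted p under 0.05 with edgeR and none passed with either tool, with a median of -0.19. With the length offsets that median was -0.04. Of 29 interferon response genes 1 was positive and 1 negative at that level (3.45% each), and none passed with edgeR or DESeq2. Of 27 cell cycle genes 4 were positive and 3 negative at an unadjusted p under 0.05 (14.8% and 11.1%), none passed with edgeR, and DESeq2 called Wee1 alone.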
